A study of Drosophila melanogaster with 18 samples.

Results

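The tubulin genes of the early Drosophila melanogaster embryo were examined as a set of 6 genes picked by name among the 16680 genes of the count table. The set holds 2 maternal isoforms, alphaTub67C and gammaTub37C, and 4 general isoforms, alphaTub84B, alphaTub84D, betaTub56D and gammaTub23C. The rule used gene names and no threshold on measured values, although earlier results of these data were known when it was written. All 6 passed the filter on low counts.

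Total RNA was sequenced from whole, hand-staged embryos of 3 maternal genotypes at 2 stages, with 3 biological replicates of each of the 6 groups and 18 libraries in all. The groups were CBP-KD, E(z)-KD and wild-type (WT) embryos at cycle 14, when the zygotic genome is active, and the same 3 genotypes before cycle 9, when nearly all RNA is maternal. CBP, encoded by nejire (nej), acetylates histone H3 at lysine 27, and E(z) methylates the same residue. The study asked with these libraries whether loss of either enzyme changes the maternal RNA load or the later activation of the genome.

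CBP-KD and E(z)-KD embryos came from mothers in which a short hairpin RNA against nej or E(z) was expressed in the female germline through Gal4 and UAS. The CBP hairpin was a homemade line and the E(z) hairpin a TRiP insertion at attP2. Both hairpins were driven by P{matα4-GAL-VP16}, whose promoter is that of the maternal alpha4-tubulin gene, which is alphaTub67C itself. Beyond WT, the labels give these embryos only a line code in the library name, whereas both knockdowns are written there as crosses that share a code. The stock list names a TRiP control line, and whether the WT mothers carried the driver is not stated in the sources used here. Eggs were collected in cages for 1 h at 25 °C, and by the study's account most embryos of both knockdowns stopped before cycle 14, so the knockdown libraries of that stage hold the embryos that reached it. The labels call the molecule nuclear RNA, while the protocol describes whole embryos in Trizol.

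Microtubules are built from dimers of alpha- and beta-tubulin and grow from rings of gamma-tubulin held by the Grip proteins. The Drosophila egg is stocked with isoforms of its own: alphaTub67C and gammaTub37C are made in the female germline and serve the meiotic spindle and the rapid cleavage divisions, while alphaTub84B, alphaTub84D, betaTub56D and gammaTub23C are used in most cells of the animal. At the transition from maternal to zygotic control, many maternal RNAs are cleared while the embryo's own genes are switched on.

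All 6 genes lie on the autosomes of the BDGP6.54 (dm6) assembly. alphaTub67C lies on chromosome 3L at 9681268 to 9683370 on the plus strand, with 2 exons that total 1617 bases and encode 462 amino acids. gammaTub37C lies on 2L at 19183863 to 19185726 on the minus strand, with 1628 exon bases and 457 codons. alphaTub84B lies on 3R at 7086599 to 7088839, and alphaTub84D on the same arm and strand (plus) at 7530753 to 7532732, in a single exon. These alpha-tubulin genes are near-identical copies that each encode 450 amino acids. betaTub56D lies on 2R at 19447319 to 19451600 on the minus strand, and gammaTub23C on 2L at 2972891 to 2974858 on the plus strand. None of the 6 overlaps another annotated gene. Only alphaTub84B and alphaTub84D had estimated counts that were not whole, in 18 of 18 libraries each, so the division of reads between these copies is uncertain and their values are also given as a sum.

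Library totals ranged between 6243486 and 18262569 counts (median 15496795), and the smallest was WT cycle 14 replicate 1. The labels held for the depleted genes. Before cycle 9, nej was at 231 to 293 CPM (counts scaled to the library total with TMM factors) in CBP-KD embryos and 1071 to 1181 CPM in WT embryos. E(z) at that stage was at 0.056 to 0.269 CPM in E(z)-KD embryos and 97.9 to 106 CPM in WT embryos. At cycle 14 the log2 difference from WT embryos was -1.76 for nej in CBP-KD and -2.80 for E(z) in E(z)-KD embryos. Within E(z)-KD embryos, E(z) rose by 4.67 on the log2 scale between the stages. Of 9 follicle cell and chorion markers, 4 testis markers and 3 yolk protein genes, the summed level stayed at or below 1.25 CPM in every library. E(z) RNA was also lower in CBP-KD than in WT embryos at cycle 14, by 1.66 on the log2 scale (edgeR quasi-likelihood test with Benjamini-Hochberg adjustment, adjusted p = 6.13e-07).

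**Figure D1:**
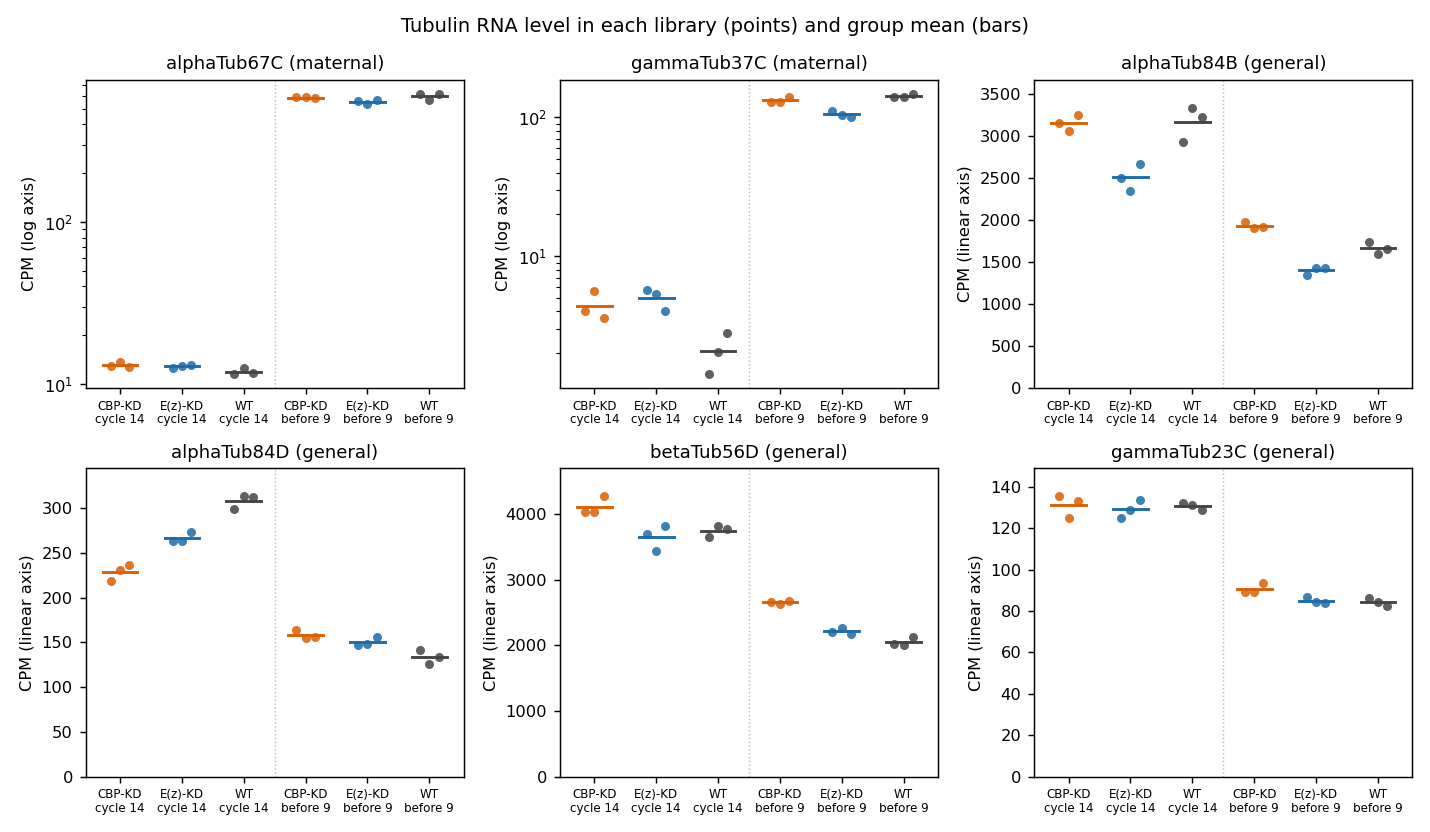
RNA level of the 6 tubulin genes in each of 18 libraries (points, 3 per group) with the group mean (bars), in CPM (counts scaled to library total), on a log axis for the maternal isoforms and a linear axis from 0 for the general ones. alphaTub67C and gammaTub37C sit far lower in every cycle 14 library than in every library before cycle 9, while the 4 general genes sit higher in all cycle 14 libraries.

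The maternal stock before cycle 9 was ordered by TPM, the length-corrected transcript abundance, which allows genes to be set side by side. In WT embryos, betaTub56D had the highest level, 2291 ± 67.9 TPM (SD, n = 3), followed by alphaTub84B at 1985 ± 163 TPM and alphaTub67C at 776 ± 50.4 TPM. gammaTub37C followed at 183 ± 5.76 TPM, alphaTub84D at 142 ± 13.4 TPM and gammaTub23C at 95.4 ± 5.98 TPM. No library of a gene overlapped in TPM with a library of its neighbour in this order. The order was nearly the same in the knockdowns, except that alphaTub84D stood above gammaTub37C in E(z)-KD embryos, at 154 ± 3.18 and 131 ± 9.69 TPM, and the libraries of these genes overlapped in CBP-KD embryos, at 155 ± 3.28 and 159 ± 7.60 TPM. By mean TPM among 16496 genes with a known length, betaTub56D ranked 17, alphaTub84B 27 and alphaTub67C 123 in WT embryos before cycle 9.

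At cycle 14 the order was different. In WT embryos betaTub56D was at 3139 ± 257 TPM and alphaTub84B at 2830 ± 349 TPM, and libraries of these genes overlapped. alphaTub84D followed at 244 ± 20.7 TPM, gammaTub23C at 111 ± 5.78 TPM, alphaTub67C at 11.5 ± 1.05 TPM and gammaTub37C at 2.03 ± 0.764 TPM, without overlap between neighbours. betaTub56D then ranked 9 and alphaTub84B 13 of 16496 genes in WT embryos, whereas alphaTub67C ranked 4923 and gammaTub37C 6880.

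The comparison of cycle 14 with before cycle 9 asked how each isoform moved across the transition. Both maternal isoforms were called lower in all 3 genotypes, where a gene was called when its adjusted p was under 0.05 and its level differed at least 2-fold. Among the 8467 genes tested, the share called lower was 27.6% in CBP-KD, 26.5% in E(z)-KD and 29.8% in WT embryos. These libraries hold whole embryos, so fewer cells with a transcript and less of it per cell cannot be told apart, and every level is a share of the RNA sequenced.

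alphaTub67C is the maternal alpha-tubulin of the egg's first spindles. Its level in CBP-KD embryos was 12.9, 13.6 and 12.7 CPM at cycle 14 and 589, 588 and 581 CPM before cycle 9. In E(z)-KD embryos it was 12.6, 12.9 and 13.2 CPM at cycle 14 and 557, 537 and 565 CPM before cycle 9. In WT embryos it was 11.5, 12.6 and 11.6 CPM at cycle 14, which rest on 73, 171 and 121 counts, and 613, 568 and 619 CPM before cycle 9. Stages were thus far apart in every genotype, and within a stage the replicates of alphaTub67C lay close together. It fell by 5.65 on the log2 scale in WT embryos (SE 0.06, edgeR adjusted p = 1.64e-19), which is 50.0-fold, and 123 of the 8467 genes had a lower log2 fold change. alphaTub67C fell by 5.42 in E(z)-KD (SE 0.05, adjusted p = 1.29e-19) and by 5.48 in CBP-KD embryos (SE 0.05, adjusted p = 1.05e-19) in the same fit.

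gammaTub37C is the maternal gamma-tubulin that the egg's meiotic spindle and the cleavage-stage centrosomes use. Its level in CBP-KD embryos was 4.03, 5.61 and 3.57 CPM at cycle 14 and 130, 130 and 140 CPM before cycle 9. In E(z)-KD embryos it was 5.70, 5.33 and 4.04 CPM at cycle 14 and 112, 103 and 100.0 CPM before cycle 9. In WT embryos it was 1.42, 2.06 and 2.78 CPM at cycle 14, from only 9, 28 and 29 counts, and 141, 140 and 148 CPM before cycle 9. gammaTub37C was low in every cycle 14 library, and lowest in the 3 WT libraries. It fell by 6.04 on the log2 scale in WT embryos (SE 0.15, edgeR adjusted p = 2.05e-15), 65.6-fold, with 88 of 8467 genes lower. The fall of gammaTub37C was 4.37 in E(z)-KD (SE 0.12, adjusted p = 7.77e-15), 20.7-fold, and 4.90 in CBP-KD embryos (SE 0.13, adjusted p = 2.48e-15), 29.8-fold.

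The general isoforms moved the other way. All 4 were higher at cycle 14 in all 3 genotypes, without overlap between the libraries of both stages in CPM. The share of all genes without such overlap was not counted. Each rise had an edgeR adjusted p under 0.05, which 83.6% of genes in CBP-KD, 84.3% in E(z)-KD and 87% in WT embryos reached in either direction. Only alphaTub84D in WT embryos also passed the fold criterion. The share of all genes called higher was 16.1% in CBP-KD, 16.1% in E(z)-KD and 21% in WT embryos, so these are moderate increases among many. alphaTub84D had 300, 313 and 312 CPM in WT embryos at cycle 14 and 142, 126 and 134 CPM before cycle 9. The alphaTub84D increase in WT embryos was 1.20 on the log2 scale (SE 0.05, adjusted p = 5.65e-13), against 0.82 in E(z)-KD embryos and 0.53 in CBP-KD embryos.

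alphaTub84B, the main alpha-tubulin of most tissues, was at 3156, 3052 and 3243 CPM in CBP-KD, 2502, 2344 and 2668 CPM in E(z)-KD, and 2921, 3333 and 3225 CPM in WT embryos at cycle 14. Before cycle 9, alphaTub84B was at 1972, 1902 and 1919 CPM in CBP-KD, 1346, 1425 and 1428 CPM in E(z)-KD, and 1741, 1596 and 1648 CPM in WT embryos. Its log2 fold change between stages was 0.71 in CBP-KD, 0.84 in E(z)-KD and 0.93 in WT embryos (SE 0.05 each). With both copies summed, alphaTub84B and alphaTub84D together were higher at cycle 14 by 0.69 in CBP-KD, 0.84 in E(z)-KD and 0.95 in WT embryos (edgeR, SE 0.05 each), so the sum did not pass the fold criterion in WT embryos either.

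betaTub56D, the beta-tubulin that pairs with these alpha isoforms, averaged 4114 ± 134 CPM in CBP-KD, 3650 ± 191 CPM in E(z)-KD and 3745 ± 83.9 CPM in WT embryos at cycle 14. Before cycle 9, betaTub56D averaged 2656 ± 22.4, 2213 ± 47.3 and 2049 ± 63.8 CPM in the same genotypes (SD, n = 3 each). Its log2 fold change between stages was 0.63 in CBP-KD, 0.72 in E(z)-KD and 0.87 in WT embryos (SE 0.04 each). gammaTub23C, the gamma-tubulin of somatic centrosomes, had the smallest increase of the general genes in WT embryos, 0.63 (SE 0.04, edgeR adjusted p = 4.26e-10), with 132, 131 and 129 CPM at cycle 14 and 86.1, 84.2 and 82.7 CPM before cycle 9.

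The general increases depend on how libraries are scaled, and so does the median of all genes. That median was 0.13 in WT embryos with TMM factors and 0.39 with DESeq2 size factors. Relative to it, alphaTub84B was higher at cycle 14 by 0.79, alphaTub84D by 1.07, betaTub56D by 0.74 and gammaTub23C by 0.50 in WT embryos. These relative values were the same to the second decimal under both scalings, because a shift common to all genes cancels out. With DESeq2 size factors alphaTub84B reached 1.18 and betaTub56D 1.12, so that 3 members rather than 1 were called higher in WT embryos. Rises in mean TPM were smaller than in CPM in WT embryos, and no general isoform reached 2-fold. In that unit betaTub56D went from 2291 to 3139, and alphaTub84B and alphaTub84D together from 2126 to 3074. The cause of this gap between the units was not tested.

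Shares within a family need no scaling between libraries. alphaTub67C made up 23.5 ± 0.325% of alpha-tubulin TPM in CBP-KD, 28.1 ± 0.904% in E(z)-KD and 26.8 ± 0.673% in WT embryos before cycle 9 (SD, n = 3 each). At cycle 14 its share was 0.421 ± 0.0263% in CBP-KD, 0.508 ± 0.0280% in E(z)-KD and 0.375 ± 0.0165% in WT embryos. gammaTub37C made up most gamma-tubulin before cycle 9, with 62.5 ± 0.393% in CBP-KD, 58.4 ± 0.943% in E(z)-KD and 65.8 ± 1.06% in WT embryos. The gamma-tubulin family thus changed its leading member between the stages in all 3 genotypes, while the alpha family was led by alphaTub84B at both.

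At cycle 14 the gammaTub37C share was 3.27, 4.86 and 2.96% in CBP-KD, 4.94, 4.48 and 3.31% in E(z)-KD, and 1.21, 1.75 and 2.39% in WT embryos. Every knockdown library lay above every WT library, although with so few reads neighbouring libraries could not be separated. As a share of counts, the highest WT library had 2.11% (95% Wilson interval 1.47 to 3.01%) and the lowest CBP-KD library 2.61% (2.03 to 3.36%). Such intervals cover counting error only. The log2 ratio of gammaTub37C to gammaTub23C changed between stages by -5.48 ± 0.228 in CBP-KD, -5.00 ± 0.183 in E(z)-KD and -6.78 ± 0.292 in WT embryos (SE of the difference). The log2 ratio of alphaTub67C to its general partners changed by -6.18 ± 0.0541, -6.26 ± 0.0588 and -6.60 ± 0.0466 in the same genotypes.

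**Figure D2:**
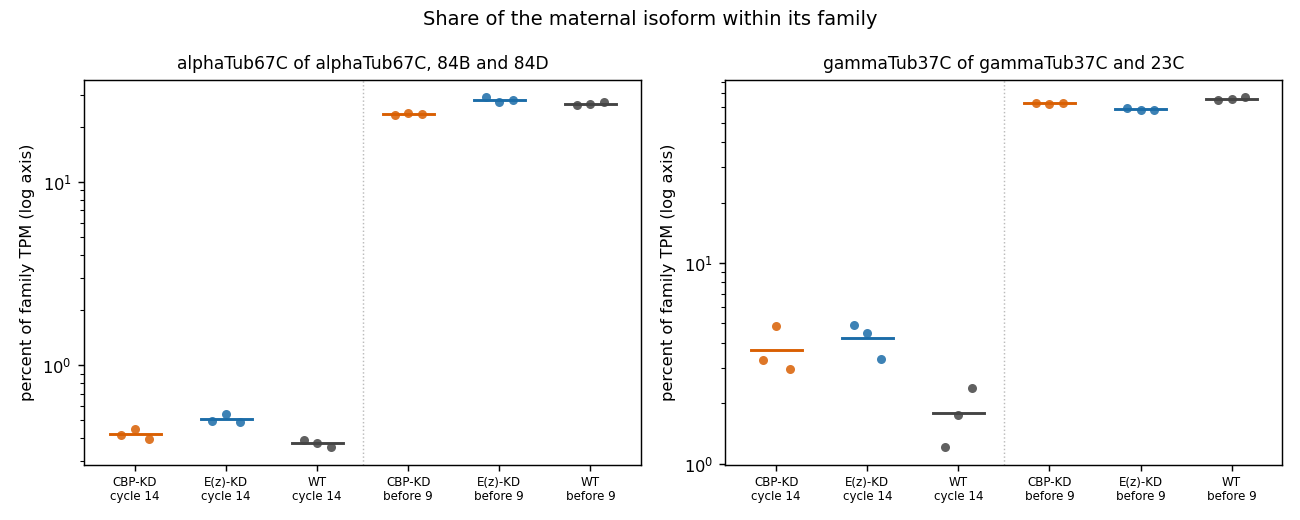
Share of the maternal isoform in the summed TPM of its family in each library (points) with the group mean (bars), on a log axis in percent. alphaTub67C is at 23.2 to 29.0% before cycle 9 and at or below 0.540% at cycle 14, and gammaTub37C at 57.5 to 67.0% before cycle 9 and at or below 4.94% at cycle 14, where all 3 WT libraries are below all 6 knockdown libraries.

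The summed family levels went different ways. Gamma-tubulin as a whole was at 132 ± 2.28 TPM in CBP-KD, 126 ± 3.16 TPM in E(z)-KD and 113 ± 6.46 TPM in WT embryos at cycle 14, against 254 ± 10.6, 224 ± 12.9 and 279 ± 10.8 TPM before cycle 9. Alpha-tubulin as a whole was at 3440 ± 81.5 TPM in CBP-KD, 2712 ± 208 TPM in E(z)-KD and 3086 ± 370 TPM in WT embryos at cycle 14, against 3002 ± 23, 2465 ± 15.3 and 2902 ± 224 TPM before cycle 9. The gamma-tubulin sum therefore lay lower at cycle 14 in every genotype, while the alpha-tubulin sums of the stages overlapped in E(z)-KD and WT embryos and did not overlap in CBP-KD embryos.

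The knockdowns were compared with WT embryos at cycle 14. Both comparisons share the same 3 WT libraries, so their values are given side by side and not counted as 2 separate results. gammaTub37C was the only member called in either, and it was called higher in both, against a background of 12% of genes called higher in CBP-KD and 11.3% in E(z)-KD embryos. It was higher by 1.04 on the log2 scale in CBP-KD (SE 0.22, edgeR adjusted p = 5.80e-04), 2.05-fold, and by 1.22 in E(z)-KD embryos (SE 0.22, adjusted p = 1.29e-04), 2.33-fold. The libraries of gammaTub37C did not overlap between knockdown and WT embryos. At any fold, 3 of 6 members had an adjusted p under 0.05 in each knockdown, against 67.1% of genes in CBP-KD and 64% in E(z)-KD embryos.

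The gammaTub37C call in CBP-KD embryos was close to the fold criterion. Its log2 fold change was 0.91 without WT replicate 1, the smallest library, 0.99 without WT replicate 2, 0.80 without CBP-KD replicate 2 and 0.87 with DESeq2 size factors. The adjusted p was at most 0.0175 in every alternative that tested it. In E(z)-KD embryos gammaTub37C stayed at or above 1.04 in the alternatives that tested it. A stricter filter of at least 10 counts in every library left gammaTub37C out of both comparisons.

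The sum of a set of maternal RNA markers also stood higher in the knockdowns at cycle 14, which does not give the level of each RNA. The summed level of 5 maternal RNA markers (bcd, nos, osk, grk and exu) was 695 to 800 CPM in CBP-KD, 664 to 715 CPM in E(z)-KD and 257 to 307 CPM in WT embryos. That of 8 zygotic markers was 902 to 1409 CPM in CBP-KD, 2205 to 2647 CPM in E(z)-KD and 4443 to 4867 CPM in WT embryos. In both knockdowns the maternal sum was thus higher, as gammaTub37C was, and the zygotic sum lower. The part of either in the gammaTub37C result was not tested.

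alphaTub67C, the other maternal isoform, did not pass the test at cycle 14. Its log2 difference from WT was 0.13 in CBP-KD (95% interval -0.07 to 0.33, edgeR adjusted p = 0.233) and 0.11 in E(z)-KD embryos (-0.11 to 0.32, adjusted p = 0.356), and with DESeq2 size factors the values of alphaTub67C were -0.05 in CBP-KD and -0.07 in E(z)-KD embryos. Its 3 libraries of each knockdown lay just above the 3 WT libraries in CPM. DESeq2 size factors moved the median of all genes at cycle 14 to -0.16 in CBP-KD and -0.21 in E(z)-KD embryos, against 0.01 and -0.03 with TMM factors. Whether alphaTub67C and gammaTub37C differed from each other in their response was not tested.

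The general isoforms differed little from WT at cycle 14. alphaTub84D had 219, 231 and 236 CPM in CBP-KD, 263, 263 and 274 CPM in E(z)-KD, and 300, 313 and 312 CPM in WT embryos, without overlap. Its log2 difference was -0.43 in CBP-KD (SE 0.05, edgeR adjusted p = 8.23e-07) and -0.21 in E(z)-KD embryos (SE 0.05, adjusted p = 1.18e-03). alphaTub84B was lower in E(z)-KD embryos by 0.34 (log2 difference -0.34, SE 0.05, adjusted p = 5.18e-05), and its log2 difference in CBP-KD embryos was -0.0046 (95% interval -0.12 to 0.11, adjusted p = 0.949). For both copies summed, the difference was -0.04 in CBP-KD (SE 0.05, adjusted p = 0.534) and -0.32 in E(z)-KD embryos (SE 0.05, adjusted p = 5.06e-05).

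betaTub56D was at 4037, 4036 and 4268 CPM in CBP-KD and 3651, 3811 and 3774 CPM in WT embryos at cycle 14, a log2 difference of 0.14 (SE 0.04, edgeR adjusted p = 6.59e-03) that turned to -0.04 with DESeq2 size factors. Relative to the median of all genes, the betaTub56D difference was 0.13 with TMM factors and 0.12 with DESeq2 size factors. In E(z)-KD embryos betaTub56D differed by -0.04 (95% interval -0.12 to 0.05, adjusted p = 0.428). gammaTub23C overlapped in CPM among all 3 genotypes, with log2 differences of 0.00 in CBP-KD (95% interval -0.09 to 0.09) and -0.02 in E(z)-KD embryos (-0.11 to 0.07), the first of which was negative with DESeq2 size factors. That scaling gave alphaTub84B -0.18 and gammaTub23C -0.17 in CBP-KD embryos, and betaTub56D -0.22 and gammaTub23C -0.20 in E(z)-KD embryos, close to the shift of all genes under it.

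**Figure D3:**
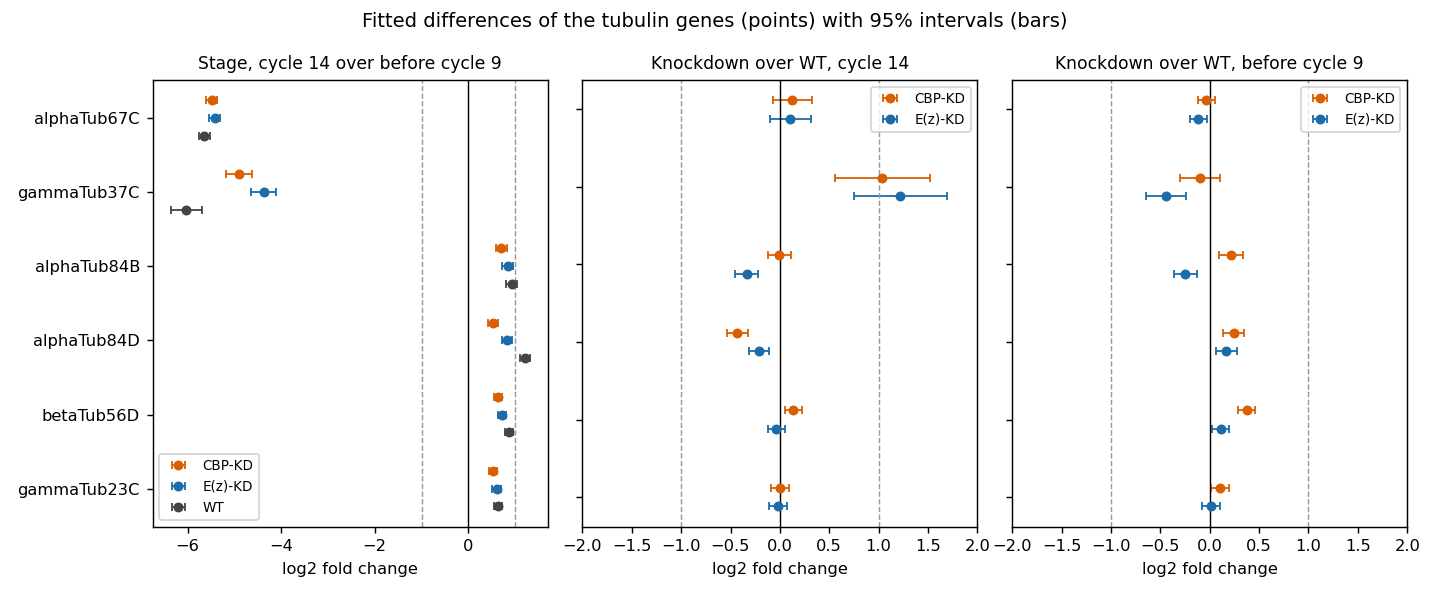
Fitted log2 fold changes of the 6 tubulin genes (points) with 95% intervals (bars) between stages in each genotype, and between each knockdown and WT embryos at cycle 14 and before cycle 9, with dashed lines at -1 and 1. The maternal isoforms lie between -6.04 and -4.37 between stages and the general ones between 0.53 and 1.20, and in the knockdown panels only gammaTub37C at cycle 14 reaches 1.

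Before cycle 9 no member was called in either knockdown by edgeR or by DESeq2, where 9.93% of genes were called in CBP-KD and 9.54% in E(z)-KD embryos. At an unadjusted p under 0.05, 4 of 6 members differed in CBP-KD and 5 of 6 in E(z)-KD embryos, and at an adjusted p under 0.05 it was 3 and 5. The share of all genes with an adjusted p under 0.05 at any fold was 31.5% in CBP-KD and 34% in E(z)-KD embryos. These comparisons also share their WT libraries.

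The largest of these small differences in E(z)-KD embryos was that of gammaTub37C, at 112, 103 and 100.0 CPM in E(z)-KD and 141, 140 and 148 CPM in WT embryos. gammaTub37C was lower by 0.44 on the log2 scale (log2 difference -0.44, SE 0.09, edgeR adjusted p = 1.12e-03), a direction opposite to that at cycle 14. alphaTub84B was lower in E(z)-KD embryos (-0.25, SE 0.05, adjusted p = 1.85e-03) and higher in CBP-KD embryos (0.22, SE 0.05, adjusted p = 5.81e-03). alphaTub84D was higher in both, by 0.17 in E(z)-KD (adjusted p = 0.0124) and 0.24 in CBP-KD embryos (adjusted p = 1.18e-03).

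betaTub56D was the member that differed most in CBP-KD embryos before cycle 9, at 2662, 2631 and 2675 CPM in CBP-KD and 2018, 2006 and 2122 CPM in WT embryos. The betaTub56D difference was 0.37 in CBP-KD (SE 0.04, edgeR adjusted p = 2.27e-06) and 0.11 in E(z)-KD embryos (SE 0.04, adjusted p = 0.0400). alphaTub67C differed by -0.12 in E(z)-KD (SE 0.04, adjusted p = 0.0349) and -0.03 in CBP-KD embryos (SE 0.04, adjusted p = 0.581). Over the alternatives run, the adjusted p of these differences rose as high as 0.318 for betaTub56D and 0.155 for alphaTub67C in E(z)-KD, 0.0777 for alphaTub84D in E(z)-KD and 0.10 for alphaTub84B in CBP-KD embryos. gammaTub23C did not pass the test in CBP-KD (0.11, 95% interval 0.01 to 0.20, adjusted p = 0.0709) or E(z)-KD embryos (0.01, -0.08 to 0.10, adjusted p = 0.902), and both values of gammaTub23C turned negative under another scaling.

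The knockdowns were also set against each other. No member was called between CBP-KD and E(z)-KD embryos by edgeR or by DESeq2 at either stage, where 15.4% of genes were called at cycle 14 and 8.67% before cycle 9, and 3 and 4 of 6 members had an unadjusted p under 0.05. At any fold, 3 of 6 members had an adjusted p under 0.05 at each stage, against 41.2% of genes at cycle 14 and 28.1% before cycle 9. alphaTub84B was higher in CBP-KD than in E(z)-KD embryos at both stages, by 0.33 at cycle 14 (SE 0.05, edgeR adjusted p = 1.53e-04) and 0.46 before cycle 9 (SE 0.05, adjusted p = 1.13e-05). betaTub56D was higher by 0.17 (SE 0.04, adjusted p = 2.41e-03) and 0.26 (SE 0.04, adjusted p = 1.32e-04) at the same stages. alphaTub84D was lower at cycle 14 (-0.22, SE 0.05, adjusted p = 1.56e-03), and gammaTub37C was higher before cycle 9 (0.34, SE 0.09, adjusted p = 0.0108). The adjusted p of gammaTub37C before cycle 9 rose to 0.0859 without TMM factors and to 0.0565 without E(z)-KD replicate 3, and was also over 0.05 without CBP-KD replicate 3. That of betaTub56D at cycle 14 rose to 0.0784 without the low-count filter and was also over 0.05 with only these groups fitted. At cycle 14 gammaTub37C differed between the knockdowns by -0.18 (95% interval -0.54 to 0.18, adjusted p = 0.416).

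Whether the effect of a knockdown differed between the stages was tested as an interaction in the same fit. gammaTub37C was the only member called, with an effect at cycle 14 minus that before cycle 9 of 1.14 in CBP-KD (SE 0.24, edgeR adjusted p = 8.67e-04) and 1.66 in E(z)-KD embryos (SE 0.23, adjusted p = 2.57e-05), where 6.71% and 6.6% of genes were called higher. At any fold 4 of 6 members in CBP-KD and 3 of 6 in E(z)-KD embryos had an adjusted p under 0.05, against 48.1% and 41% of all genes. The term for alphaTub67C did not pass the test, at 0.16 in CBP-KD (95% interval -0.04 to 0.36, adjusted p = 0.157) and 0.22 in E(z)-KD embryos (0.03 to 0.42, adjusted p = 0.0603).

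The division between the near-identical alpha-tubulin copies was followed as the share of alphaTub84D in their joint TPM. It was 6.04 ± 0.259% in CBP-KD, 8.63 ± 0.367% in E(z)-KD and 7.96 ± 0.328% in WT embryos at cycle 14, and 6.77 ± 0.0676%, 8.70 ± 0.228% and 6.65 ± 0.122% before cycle 9 (SD, n = 3 each). The alphaTub84D share was lower in every CBP-KD library than in every WT library at cycle 14, and higher in every E(z)-KD library than in every WT library before cycle 9. The ratio of summed alpha-tubulin TPM to betaTub56D TPM was 0.873 ± 0.0134 in CBP-KD, 0.805 ± 0.0131 in E(z)-KD and 0.981 ± 0.0412 in WT embryos at cycle 14, and 1.09 ± 0.0163, 1.03 ± 0.0382 and 1.27 ± 0.0626 before cycle 9. It was thus lower in both knockdowns than in WT embryos at each stage, without overlap between libraries.

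For each member, the 3 genes with the most similar profile over the 18 libraries were found by the root mean square difference of centred log2 CPM. Those of alphaTub67C were Pld, CG13005 and fs(1)M3, with differences of 0.19 to 0.23. Those of gammaTub37C were aret, Jabba and fs(1)Ya, with differences of 0.21 to 0.28. aret, which encodes the RNA-binding protein Bruno, was at 57.2 CPM in CBP-KD, 83.6 CPM in E(z)-KD and 32.5 CPM in WT embryos at cycle 14, against 1756, 1633 and 2003 CPM before cycle 9. These genes were chosen for their likeness, so a shared pattern is a description only. The nearest genes were MEP-1, CG7611 and ed for alphaTub84B, nmo, dlg1 and CR42549 for alphaTub84D, Spt5, Pka-C1 and Nup153 for betaTub56D, and CG8602, CG3335 and Cdc42 for gammaTub23C, with differences between 0.04 and 0.10.

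The other tubulin genes of the list were at low counts. alphaTub85E, betaTub85D and betaTub97EF had at most 5 counts in any library and were not tested. CG32396 (betaTub65B) had 15, 9 and 3 counts in CBP-KD, 20, 21 and 21 in E(z)-KD and 30, 65 and 61 in WT embryos at cycle 14, and at most 1 count in any library before cycle 9. CG7794, the third gene tested, had 17, 26 and 17 counts in CBP-KD, 13, 16 and 11 in E(z)-KD and 12, 18 and 18 in WT embryos at cycle 14, and 1, 2 and 3, 1, 0 and 0, and 0, 0 and 0 counts before cycle 9 in the same genotypes. It was called higher in CBP-KD than in WT embryos before cycle 9 (edgeR adjusted p = 8.48e-03), on 6 counts against 0. The share of all genes called lower at cycle 14 was 15.2% in CBP-KD and 13% in E(z)-KD embryos. CG32396 was called lower in CBP-KD (-3.19, SE 0.48, edgeR adjusted p = 4.35e-05) and E(z)-KD embryos (-1.96, SE 0.44, adjusted p = 1.45e-03). betaTub60D, a beta-tubulin of differentiating muscle and neurons, had 3 to 5 counts in CBP-KD and 7 or 8 in E(z)-KD embryos at cycle 14. In WT embryos of that stage it had 6, 8 and 37 counts, sorted by size and not by replicate. betaTub60D was called lower in CBP-KD (-2.65, adjusted p = 2.45e-04) and E(z)-KD embryos (-1.73, adjusted p = 4.27e-03), and its highest WT value was that of replicate 2. Before cycle 9 betaTub60D had 0, 0 and 1 counts in CBP-KD, 23, 21 and 31 in E(z)-KD and 7, 9 and 10 in WT embryos, so that the 3 E(z)-KD libraries were highest at that stage. Relative to WT embryos it was called lower in CBP-KD (-3.96, edgeR adjusted p = 1.74e-03) and higher in E(z)-KD embryos (1.54, adjusted p = 0.0127) before cycle 9. Of all genes, 9.93% and 9.54% were called in either direction in these comparisons. The summed level of 4 markers of late embryonic muscle and neurons was 14.4 to 31.1 CPM in CBP-KD, 24.4 to 36.1 CPM in E(z)-KD and 116 to 137 CPM in WT embryos at cycle 14. The muscle markers Mhc and Act57B had at most 6 and 2 counts in any library of that stage. The sum thus came almost wholly from the neuronal markers elav and nSyb and says nothing about muscle. Its part in these low counts was not tested.

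The other proteins of the gamma-tubulin ring complex, which caps and nucleates microtubules together with gamma-tubulin, were followed in a list of 7 genes, all tested. In WT embryos 5 were called lower and 2 higher at cycle 14, with a list median of -1.55, where 29.8% of all genes were called lower and 21% higher. Grip84, a core subunit next to gamma-tubulin, was at 19.1 ± 0.937 CPM in WT embryos at cycle 14 and 340 ± 13.6 CPM before cycle 9 and fell by 4.15 on the log2 scale (SE 0.09, edgeR adjusted p = 5.49e-16). Grip71, which recruits the complex to the spindle, was at 20.8 ± 0.374 and 190 ± 3.02 CPM in the same groups and fell by 3.20 (SE 0.07, adjusted p = 5.62e-16). CG42787 (Mzt1) had 10, 26 and 15 counts in WT embryos at cycle 14 and 0 in each library before cycle 9, so its call as higher carries no usable fold. Grip75 was the other ring complex gene called higher in WT embryos (1.02, adjusted p = 1.34e-11).

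In the knockdowns at cycle 14, 2 ring complex genes were called higher and 1 lower in CBP-KD, and 2 higher and 1 lower in E(z)-KD embryos, with list medians of 0.78 and 0.62 beside medians of all genes of 0.01 and -0.03. Of all genes, 12% were called higher and 15.2% lower in CBP-KD, and 11.3% and 13% in E(z)-KD embryos. Grip163 was at 81.6 ± 8.26 CPM in CBP-KD, 84 ± 11 CPM in E(z)-KD and 32.7 ± 5.55 CPM in WT embryos, higher by 1.29 (SE 0.11, edgeR adjusted p = 3.76e-08) and 1.34 (SE 0.11, adjusted p = 3.60e-08). Grip71 was at 70.1 ± 7.45 CPM in CBP-KD, 31.8 ± 1.99 CPM in E(z)-KD and 20.8 ± 0.374 CPM in WT embryos, called higher in CBP-KD (1.76, SE 0.07, adjusted p = 7.50e-12) and short of the fold criterion in E(z)-KD embryos (0.62, adjusted p = 2.29e-06). Grip91 was called higher in E(z)-KD embryos (1.02, SE 0.06, adjusted p = 1.28e-09). CG42787 was called lower in both, with 0, 3 and 0 counts in CBP-KD, 5, 2 and 2 in E(z)-KD and 10, 26 and 15 in WT embryos. With genes on the other strand, Grip91 shares 269 exon bases, Grip71 227, Grip75 200, Grip84 95 with its longest partner and CG42787 68. The libraries were made with stranded kits, but the strand setting of the counting is not given in the sources used here.

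The augmin complex, which branches microtubules inside the spindle, had 3 of 8 genes called lower and 0 called higher by edgeR in WT embryos at cycle 14 relative to before cycle 9, with a median of -0.50, and 3 of 8 is near the 29.8% of all genes called lower. Its strongest falls were those of dgt2 (-2.56), dgt3 (-1.72) and dgt5 (-1.31). No augmin gene was called in either knockdown at cycle 14. Of 17 genes of the centriole and the pericentriolar matrix, 10 were called lower and 1 higher in WT embryos, against 29.8% and 21% of all genes, with a median of -2.25, led by Cep97 (-4.89), the mitotic kinase aur (-3.15) and the centriolar scaffold gene spd-2 (-3.08). In CBP-KD embryos at cycle 14, Cep97 (1.86) and tacc (1.13) were called higher and ana3 lower, just past the fold criterion. In E(z)-KD embryos the centriole assembly genes Sas-6 (-1.22) and Sas-4 (-1.03), with Cnb (-1.13), were called lower. The list medians were 0.01 and 0.00 in these comparisons. Of the 17 genes, 2 were called higher and 1 lower in CBP-KD, and 0 and 3 in E(z)-KD embryos. Among all genes, 12% were called higher and 15.2% lower in CBP-KD, and 11.3% and 13% in E(z)-KD embryos.

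Of 29 microtubule-associated proteins and motors tested, 12 were called lower and 0 higher by edgeR in WT embryos at cycle 14, with a median of -0.72, where 29.8% of all genes were called lower and 21% higher. stai, which encodes the tubulin-binding protein stathmin, had a log2 fold change of -5.08, the chromokinesin gene nod -4.95 and the dynein heavy chain gene Dhc64C -4.25, all 3 called lower. stai was at 67.2 ± 22.9 CPM in CBP-KD, 48.8 ± 9.60 CPM in E(z)-KD and 11.2 ± 0.663 CPM in WT embryos at cycle 14, higher by 2.61 (SE 0.22, edgeR adjusted p = 2.38e-08) and 2.14 (SE 0.22, adjusted p = 3.81e-07). The kinesin heavy chain gene Khc was higher by 1.72 in CBP-KD (SE 0.07, adjusted p = 5.27e-12) and 1.80 in E(z)-KD embryos (SE 0.07, adjusted p = 5.47e-12). In all, 4 genes of the list were called higher in CBP-KD, 3 in E(z)-KD and 0 lower in either. The higher calls are close to the 12% and 11.3% of all genes called higher. Of all genes, 15.2% were called lower in CBP-KD and 13% in E(z)-KD embryos.

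The list of tubulin folding and modification factors had 13 genes tested, of which 6 were called lower and 2 higher in WT embryos at cycle 14, with a median of -0.38, against 29.8% and 21% of all genes. The tubulin cofactor gene CG1890 (Tbca) fell by 4.75 (SE 0.21, edgeR adjusted p = 1.55e-12). The gene CG5987 (TTLL6B) was higher by 3.99 (SE 0.52, adjusted p = 1.84e-06). In the knockdowns at cycle 14, TTLL3A was called lower in CBP-KD (-3.11, adjusted p = 3.06e-03), and TTLL3A (-3.34, adjusted p = 2.60e-03), CG1890 (-1.34, adjusted p = 3.26e-04) and Arl2 (-1.06, adjusted p = 4.06e-03) in E(z)-KD embryos. Levels of these genes averaged at most 3.43 CPM in any of these groups. The lower calls are 1 of 13 genes in CBP-KD and 3 of 13 in E(z)-KD embryos, where 15.2% and 13% of all genes were called lower. Of the genes named from the last 4 lists, tacc, Arl2, Cep97, aur, nod and Sas-6 share 281 to 74 exon bases with a gene on the other strand, and dgt2 and Dhc64C 53 and 39 with one on their own strand.

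**Figure D4:**
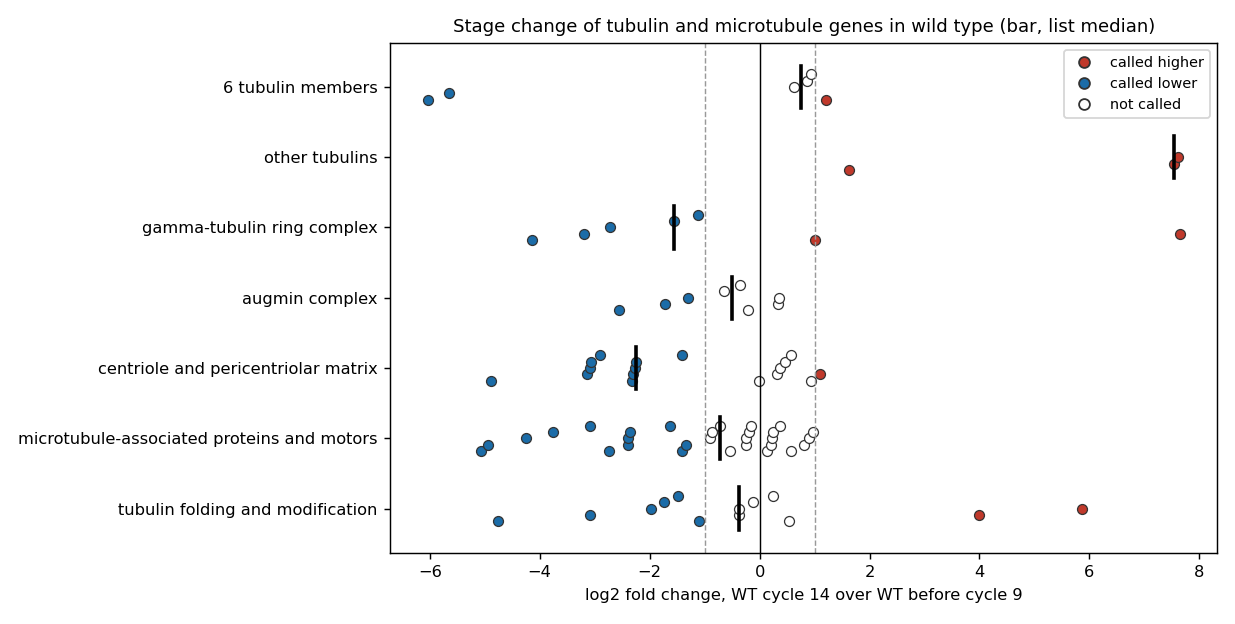
Log2 fold change between WT embryos at cycle 14 and before cycle 9 for the 6 tubulin genes and for 6 lists of related genes (points, filled where called), with the median of each list (bars) and dashed lines at -1 and 1. Values near 6 to 8 belong to genes with at most 1 count in each library before cycle 9, whose fitted size depends on the prior count, and the list medians lie between -2.25 for the centriole list and 7.54 for the 3 other tubulins tested.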

How the data were processed

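Reads were mapped by the authors with STAR in 2-pass mode to dm6, keeping reads with many matches and with its gene and transcriptome counting output (quantMode TranscriptomeSAM GeneCounts), from libraries made with stranded kits; the tool behind the estimated counts, the annotation and the strand setting are not given in the sources used here. The deposited table holds estimated counts per gene (expected counts, 2.9% of values not whole), which were rounded to whole numbers. The design had assumed whole counts. Spike-ins were not used here, and no sequences were analysed.

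Gene lengths came from Ensembl release 115 (BDGP6.54), with 16496 of 16680 names matched. The table was fitted with edgeR 4.0.16 in R 4.3.3: TMM factors, filterByExpr, 6 group means over all 18 libraries, quasi-likelihood tests with 12 residual degrees of freedom and Benjamini-Hochberg adjustment over 8467 genes. SEs follow the F statistic, or the p where counting noise bounds it. DESeq2 1.42.0, another filter, the replicate block, 2-group fits and leaving out each library were alternatives. The fit was tested on simulated data, where it recovered 193 of 200 genes changed 4-fold and called 1 unchanged gene. The changed genes were drawn above a minimum level that gammaTub37C did not reach in WT embryos at cycle 14. A 2-fold change at such low counts was therefore not covered. Replicates differed by more than sampling noise (chi-square per gene of 3.12 to 19.0 over 18 pairs). The labels call the replicates biological and do not say whether they came from separate cages, so p-values measure the spread between these samples.

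The members, lists and tests were chosen with earlier results of these data known. Genes named are the 6 members, nej and E(z), up to 3 called genes per list and comparison with the largest change, and the 3 genes most like each member; Grip75 and the genes given at or near 0 counts were also named after their values were seen.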

Additional observations from a re-analysis of the deposited data

Results flagged for a closer look

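The effect of a knockdown differed between the stages, by the interaction term of the edgeR fit, for 4 members in CBP-KD and 3 in E(z)-KD embryos at an adjusted p under 0.05, against 48.1% and 41% of all genes. For gammaTub37C the effect at cycle 14 minus that before cycle 9 was 1.14 on the log2 scale in CBP-KD (SE 0.24, edgeR adjusted p = 8.67e-04) and 1.66 in E(z)-KD embryos (SE 0.23, adjusted p = 2.57e-05). These were the only members called at the fold criterion, and the value in CBP-KD embryos was 0.90 without CBP-KD cycle 14 replicate 2.

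For alphaTub84D the same term was -0.67 in CBP-KD (SE 0.07, adjusted p = 7.65e-07) and -0.38 in E(z)-KD embryos (SE 0.07, adjusted p = 2.70e-04). alphaTub84B had -0.22 in CBP-KD embryos (SE 0.08, adjusted p = 0.0256). betaTub56D had -0.24 in CBP-KD (SE 0.06, adjusted p = 2.14e-03) and -0.15 in E(z)-KD embryos (SE 0.06, adjusted p = 0.0443). Over the alternatives the adjusted p reached 0.442 for alphaTub84B in CBP-KD, 0.173 for betaTub56D in CBP-KD and 0.602 for betaTub56D in E(z)-KD embryos, and at most 2.17e-03 for alphaTub84D.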

How the results depend on the processing

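Each member's log2 fold change was recomputed under other settings, 963 values in all, of which 905 kept their direction and their side of the criteria, 44 reversed, 8 newly passed and 6 no longer passed. The cause was not tested where none is named. The stage falls of alphaTub67C and gammaTub37C and the higher gammaTub37C in E(z)-KD embryos at cycle 14 passed in every alternative that tested them. The WT library with the fewest counts limits gammaTub37C at cycle 14 to 9 counts, and a filter that asked for 10 counts in each library removed it.

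With that filter 0 members were called higher at cycle 14 in CBP-KD and in E(z)-KD embryos, 0 in both interactions, and 1 was called lower between stages in each genotype. Higher calls in CBP-KD embryos at cycle 14 were 0 with DESeq2 size factors in edgeR and 0 with DESeq2's Wald test. Higher calls between stages in WT embryos numbered 3 with DESeq2 size factors, 3 with the Wald test, 3 with the 10-count filter and 3 when only the groups compared were fitted. With alphaTub84B and alphaTub84D summed, a choice made after seeing the data, that number was 0. Leaving out 1 library at a time, higher calls were 0 to 1 in CBP-KD embryos at cycle 14 (0 without WT replicate 1, WT replicate 2 or CBP-KD replicate 2) and 0 to 1 in the CBP-KD interaction (0 without CBP-KD cycle 14 replicate 2).

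The reversals concern small differences. Without TMM factors gammaTub23C was at -0.0053 in CBP-KD and -0.0050 in E(z)-KD relative to WT embryos before cycle 9, at 0.0525 in the CBP-KD and 0.000126 in the E(z)-KD interaction and at -0.000297 between CBP-KD and E(z)-KD embryos before cycle 9, where alphaTub67C was at -0.0119 and alphaTub84D at -0.0215. alphaTub84B in CBP-KD embryos at cycle 14 was at 0.0402 without TMM factors and 0.0294 without the low-count filter. With DESeq2 size factors in edgeR and with the Wald test, gammaTub23C in E(z)-KD embryos before cycle 9 was at -0.0230 and -0.0229. The same settings at cycle 14 gave -0.0454 and -0.0469 for alphaTub67C, -0.0405 and -0.0405 for betaTub56D and -0.172 and -0.172 for gammaTub23C in CBP-KD, and -0.0741 and -0.0760 for alphaTub67C in E(z)-KD embryos. With the 10-count filter gammaTub23C was at -0.0645 in CBP-KD relative to WT embryos at cycle 14, and between CBP-KD and E(z)-KD embryos alphaTub67C was at -0.00265 and gammaTub23C at -0.00481. With only the groups compared, gammaTub23C was at -0.0269 in CBP-KD embryos at cycle 14, and between CBP-KD and E(z)-KD embryos before cycle 9 alphaTub67C was at -0.00639 and alphaTub84D at -0.0165. Without the low-count filter betaTub56D was at 0.00557 and gammaTub23C at 0.0247 in E(z)-KD embryos at cycle 14, and gammaTub23C at 0.0105 in the E(z)-KD interaction.

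Leaving out 1 library at a time, gammaTub23C ranged from -0.00412 to 0.0255 in E(z)-KD embryos before cycle 9, -0.0151 to 0.0409 in CBP-KD and -0.0355 to 0.0120 in E(z)-KD embryos at cycle 14, -0.00701 to 0.0555 between CBP-KD and E(z)-KD embryos at cycle 14 and -0.0456 to 0.00070 in the E(z)-KD interaction. alphaTub84B ranged from -0.0577 to 0.0391 in CBP-KD and betaTub56D from -0.0611 to 0.0265 in E(z)-KD embryos at cycle 14, and alphaTub67C from -0.00751 to 0.0413 between CBP-KD and E(z)-KD embryos at cycle 14.

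Family shares depend on length. The alphaTub67C share with counts not divided by length, with coding length and with alphaTub84D left out was 21.9, 21.5 and 24.8% in CBP-KD, 26.3, 25.8 and 30.0% in E(z)-KD and 25.0, 24.6 and 28.1% in WT embryos before cycle 9, and 0.386, 0.376 and 0.448% in CBP-KD, 0.464, 0.452 and 0.556% in E(z)-KD and 0.342, 0.334 and 0.407% in WT embryos at cycle 14. The gammaTub37C share before cycle 9, with counts not divided by length and with coding length, was 59.5 and 60.4% in CBP-KD, 55.2 and 56.2% in E(z)-KD and 62.9 and 63.8% in WT embryos.

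In no comparison was the correlation of deviations over 0.1 for every pair of samples with the same replicate number. It came nearest between E(z)-KD and WT embryos before cycle 9, at 0.149, 0.072 and 0.153. A replicate block changed no member's call, with 1 member called higher in CBP-KD and 1 in E(z)-KD embryos at cycle 14, and over all genes it gave 2287 calls against 2303 in CBP-KD and 2028 against 2055 in E(z)-KD embryos. The planned scaling to spike-ins and the search for promoter motifs were not run.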
